A study of Mus musculus with 8 samples.

Results

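Foxp3 and 7 transcription factors that are known to bind the *Foxp3* locus or to pair with the FOXP3 protein were examined in induced regulatory T cells (iTregs). The 8 genes, *Foxp3*, *Foxp1*, *Foxp4*, *Runx1*, *Cbfb*, *Ets1*, *Creb1* and *Satb1*, were chosen by name, with earlier results of these data known. All 8 are among the 11911 protein-coding genes of the count table and among the 11317 genes that had enough counts to be tested. The libraries came from splenic CD4+ cells of 2 kinds of mice, Foxp3YFP-Cre controls (libraries labelled WT1 to WT4) and TDRD3fl/fl/Foxp3YFP-Cre mice (labelled KO1 to KO4), 4 libraries each. All mice were on a C57BL/6J background, and their age is not given in the sources used here. The methods name 3 replicates from independent mice in each group, whereas the labels hold 4 libraries of each and tie none to a mouse, so n = 4 may exceed the number of mice and p-values measure only the spread between these libraries. Naïve CD4+ T cells had been kept for 36 h with TGF-β, anti-CD3 and anti-CD28 and with antibodies that block IFN-γ and IL-4. Both genotypes carry Cre and YFP in the *Foxp3* locus, so Cre is expected once *Foxp3* is transcribed. Deletion of the floxed *Tdrd3* gene is therefore expected in cells that have begun to make FOXP3. The counts do not show in which cells the deletion occurred. The methods of the study describe harvest of the CD4+ cells without a sort for YFP, so cells that did not turn on *Foxp3* are part of every library. In such bulk RNA, fewer FOXP3+ cells and less *Foxp3* RNA per cell cannot be told apart.

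FOXP3 is the transcription factor that sets the identity of regulatory T cells, and in naïve cells its gene is switched on by signals from TGF-β, the T cell receptor and CD28. RUNX1 with its partner CBFβ, the non-DNA-binding subunit that steadies RUNX proteins on DNA, binds the promoter and an intronic enhancer of *Foxp3*, and RUNX1 also binds the FOXP3 protein. ETS1 and CREB1 bind enhancer elements of the locus, SATB1 organizes chromatin at Treg genes before *Foxp3* is expressed and is itself held down by FOXP3, and FOXP1 and FOXP4 are forkhead relatives of FOXP3.

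In GRCm39, *Foxp3* spans positions 7439883 to 7461484 of the X chromosome (forward strand), and *Runx1* spans 92398354 to 92623037 of chromosome 16 (reverse strand). The promoters of these genes are shown because *Foxp3* and *Runx1* were the members that differed most between genotypes and their counts ran opposite to each other across libraries. Each sequence is the stretch of 250 bases before an annotated transcription start, taken from RefSeq on GRCm38.p6 and written 5′ to 3′ on the strand of the gene, with matches on either strand to TGTGG (the core letters of a RUNX motif, CCACA on the other strand), GGAAG (of an ETS motif, or CTTCC) and TGTTTA (of a forkhead motif, or TAAACA) in capitals.
*Foxp3*, first start, chrX:7579426-7579675, plus strand: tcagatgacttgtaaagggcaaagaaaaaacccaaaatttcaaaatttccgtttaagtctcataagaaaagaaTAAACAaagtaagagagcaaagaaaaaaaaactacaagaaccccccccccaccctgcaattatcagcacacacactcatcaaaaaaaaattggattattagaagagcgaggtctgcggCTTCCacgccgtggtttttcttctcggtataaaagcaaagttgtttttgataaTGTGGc
*Foxp3*, second start, chrX:7580233-7580482, plus strand: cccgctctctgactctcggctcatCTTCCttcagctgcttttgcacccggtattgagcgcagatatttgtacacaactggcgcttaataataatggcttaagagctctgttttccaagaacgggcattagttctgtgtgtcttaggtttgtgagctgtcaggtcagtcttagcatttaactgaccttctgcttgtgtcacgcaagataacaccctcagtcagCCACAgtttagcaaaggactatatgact
*Runx1*, first start, chr16:92826075-92826324, minus strand: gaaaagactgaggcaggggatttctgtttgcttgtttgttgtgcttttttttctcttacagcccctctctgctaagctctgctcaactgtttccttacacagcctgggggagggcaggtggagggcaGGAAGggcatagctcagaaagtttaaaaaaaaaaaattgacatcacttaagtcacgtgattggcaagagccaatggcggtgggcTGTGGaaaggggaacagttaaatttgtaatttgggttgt
*Runx1*, second start, chr16:92697330-92697579, minus strand: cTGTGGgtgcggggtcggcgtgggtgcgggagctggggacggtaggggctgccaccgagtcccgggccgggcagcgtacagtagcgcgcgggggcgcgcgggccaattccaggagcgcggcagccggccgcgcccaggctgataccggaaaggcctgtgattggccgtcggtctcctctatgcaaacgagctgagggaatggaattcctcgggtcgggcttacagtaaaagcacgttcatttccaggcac
Both *Foxp3* stretches held a RUNX and an ETS match, and the first held a forkhead match as well. Both *Runx1* stretches held a RUNX match, and the first held an ETS match. Such short matches are common, since the RUNX letters occur in 49.3%, the ETS letters in 64.1% and the forkhead letters in 12% of all 32851 promoter stretches of that length. The half-site of the cyclic AMP response element, TGACG or its complement on the other strand, which occurs in 17.8% of them, was searched for as well and was found among the members only in 1 of the 3 *Foxp1* promoters. A match is a description of the letters, not a binding site. Promoters of 7 of the 8 members were matched, at 15 starts, and *Ets1* was not among them.

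The summed counts of the listed genes ranged from 13258239 to 16001676 per library. *Tdrd3* itself, given as a check of the labels, had 18.8, 15.1, 9.95 and 17.7 CPM (counts scaled to the library total, with TMM normalization factors) in WT1 to WT4 and 13.7, 10.7, 12.9 and 11.1 in KO1 to KO4, so the library labelled WT3 had less than every KO library. In edgeR's test the log2 fold change of *Tdrd3* was −0.35 (unadjusted p 0.0370, adjusted p 0.496), and the exact permutation p was 0.229. *Tdrd3* RNA thus did not separate the genotypes. Because each gene has a single total, reads from the floxed exons cannot be read out apart. T cell markers (*Cd3e*, *Cd3g*, *Cd4*, *Lck*) summed to between 1381 and 1486 CPM in all libraries. Of the B cell, myeloid, natural killer and erythroid markers, 8 of 10 are not listed in the table, *Cd79a* reached at most 13 counts, and the myeloid gene *Lyz2* had 9 counts in KO1 and 18 in KO4 and under 1 in the other 6 libraries. *Cd8a* had 161 counts in the library labelled WT3 and 6 to 20 elsewhere. KO1 and KO4 resembled each other more than any other KO pair, with a chi-square statistic divided by its degrees of freedom of 2.59 against 3.78 to 4.85, and they were also the libraries with the lowest *Foxp3*, so results that rest on them are given with and without them. The part of *Lyz2*-expressing or *Cd8a*-expressing cells in the results was not tested.

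The first question was whether *Foxp3* and its regulators differed between TDRD3fl/fl/Foxp3YFP-Cre and control iTregs. None of the 8 genes passed an adjusted p of 0.05 over all tested genes in edgeR's quasi-likelihood test, a level that 0.265% of tested genes reached. DESeq2 likewise gave 0 of the 8, and limma voom with quality weights gave 2, *Foxp3* and *Runx1*. In edgeR's test, 3 of the 8 passed an unadjusted p below 0.05, *Foxp3* and *Ets1* with lower and *Runx1* with higher counts in the KO. This stands beside 9.30% of all tested genes (4.91% lower and 4.38% higher). The exact permutation test over the 70 arrangements of the libraries gave p of 0.0571 for *Foxp3*, 0.0857 for *Runx1* and 0.171 for *Ets1*. None of the 3 passed there, and the smallest p this test can give is 0.0286. In edgeR's test without KO1 and KO4, none of the 8 passed at an unadjusted p below 0.05, beside 3.91% of tested genes. Values of the 2 genotypes overlapped in every member, whereas they did not overlap in 4.89% of tested genes. The median log2 fold change was −0.01 over the members and 0.00 over all tested genes.

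*Foxp3* had 117, 122, 107 and 93.8 CPM in WT1 to WT4 and 77.2, 105, 93.2 and 78.1 in KO1 to KO4. WT1, WT2 and the library labelled WT3 lay above all KO libraries, and WT4 lay between KO3 and KO2. Controls averaged 110 ± 12.5 CPM (SD, n = 4) and the KO 88.4 ± 13.3, that is 19.5% lower by the edgeR fit, with a log2 fold change of −0.31 and a 95% interval of −0.50 to −0.13. With an unadjusted p of 0.00212, the edgeR test gave an adjusted p of 0.152, so the difference did not pass the correction over all genes. The unadjusted p was 0.0204 by DESeq2 and 0.0571 by the exact permutation test. *Foxp3* was the only member with an unadjusted p below 0.05 and at least a 1.2-fold difference, one of the cutoffs named in the study, which 3.47% of tested genes met. It no longer met it without WT2, without KO1 or without KO4, when 0 of the 8 genes did. No member met the larger cutoff of the methods, 1.5-fold, which 1.30% of tested genes met. Leaving out WT4 gave a log2 fold change of −0.38 with an adjusted p of 0.0337, and leaving out KO2 gave −0.41 with an adjusted p of 0.0104. With KO1 and KO4 left out, the log2 fold change was −0.15 with an adjusted p of 1.00 and an unadjusted p of 0.111. The 2 remaining KO libraries averaged 99.1 CPM, against 77.6 in KO1 and KO4, the 2 lowest, so a smaller difference follows from leaving these out.

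Counts at the *Foxp3* locus may include reads of neighbours, since whether the counting used strand is not given in the sources used here. Its exons share 590 bases with *Ccdc22* and 266 with *Ppp1r3f*, both on the opposite strand, and 853 with the long noncoding RNA gene *Flicr* on the same strand, which the table does not list. They also share 373 bases with the long noncoding RNA gene *Gm36995* on the opposite strand, which is not listed either. *Ccdc22*, an endosomal sorting gene, had 31.9 ± 1.32 CPM (SD, n = 4) in controls and 31.7 ± 1.55 in the KO. *Ppp1r3f*, a regulatory subunit of a phosphatase, had 10.9 ± 2.89 and 10.2 ± 1.72 CPM. Their log2 fold changes were −0.01 and −0.09, with adjusted p of 0.982 and 0.923 in edgeR's test.

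**Figure D1:**
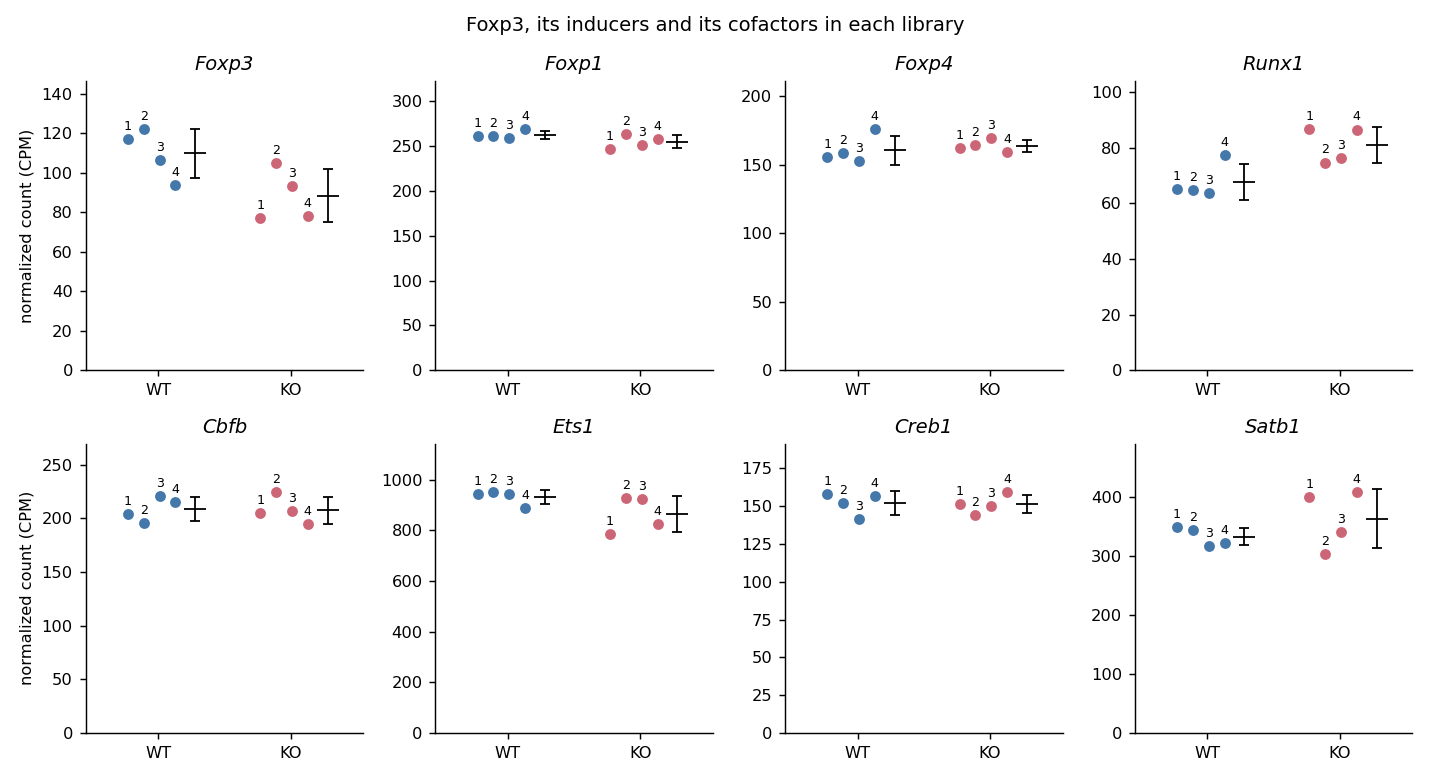
Normalized counts (CPM, linear axes from 0) of the 8 genes in each library, with the replicate number over each point, controls (WT) in blue and TDRD3fl/fl/Foxp3YFP-Cre (KO) in red; bars are the mean ± SD of 4 libraries. *Foxp3* and *Ets1* were lowest, and *Runx1* and *Satb1* highest, in KO1 and KO4, while *Foxp1*, *Foxp4*, *Cbfb* and *Creb1* lay within a narrow band in all libraries.

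*Runx1* had 65.1, 64.7, 63.6 and 77.3 CPM in WT1 to WT4 and 86.7, 74.7, 76.2 and 86.6 in KO1 to KO4. KO1 and KO4 were above all controls, and WT4 stood above the other controls and above KO2 and KO3. The mean was 67.7 ± 6.46 CPM (SD, n = 4) in controls and 81.0 ± 6.48 in the KO, 19.7% higher by the fit, with a log2 fold change of 0.26 (95% interval 0.12 to 0.40), an adjusted p of 0.134 and an unadjusted p of 0.00130 in edgeR's test. This lay just under the 1.2-fold cutoff. Without WT4 the log2 fold change was 0.33 (adjusted p 0.0154) and without KO2 it was 0.30 (adjusted p 0.0430), whereas without KO1 and KO4 it was 0.16 (adjusted p 1.00, unadjusted p 0.0684). *Cbfb*, whose product RUNX1 needs for stable DNA binding, spans 105897306 to 105944621 of chromosome 8 (forward strand) and had 196 to 221 CPM in controls and 194 to 225 in the KO. Its log2 fold change was −0.01 with a 95% interval of −0.11 to 0.09, and its sign turned when WT3, WT4 or KO4 was left out.

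*Ets1*, a T cell transcription factor that binds *Foxp3* regulatory DNA, was the most abundant member and spans 32547517 to 32669116 of chromosome 9 (forward strand). It had 941, 951, 944 and 889 CPM in WT1 to WT4 and 784, 926, 924 and 826 in KO1 to KO4. KO1 and KO4 lay below all controls, and KO2 and KO3 lay among them. The log2 fold change was −0.11 (95% interval −0.21 to −0.01), with an adjusted p of 0.499 (unadjusted p 0.0390) in edgeR's test. Leaving out WT1, WT2, WT3, KO1 or KO4 each raised the unadjusted p above 0.05, to between 0.0663 and 0.192, and without both KO1 and KO4 the log2 fold change was −0.01 with an unadjusted p of 0.825. *Creb1*, which relays T cell receptor and cyclic AMP signals, spans 64571804 to 64643707 of chromosome 1 (forward strand) and had 141 to 158 CPM in controls and 144 to 159 in the KO, a log2 fold change of −0.01 with a 95% interval of −0.11 to 0.09. Its sign turned when WT1, WT4 or KO2 was left out.

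*Satb1*, which spans 52043215 to 52140318 of chromosome 17 (reverse strand), was the member whose KO libraries differed most among themselves after *Foxp3*, with a coefficient of variation of 13.9% in the KO against 4.52% in controls. It had 348, 343, 317 and 322 CPM in WT1 to WT4 and 400, 302, 341 and 408 in KO1 to KO4. KO1 and KO4 were above every control, KO2 was below every control, and KO3 lay among them. The log2 fold change was 0.13 (95% interval −0.02 to 0.27), with an adjusted p of 0.636 and an unadjusted p of 0.0876 in edgeR's test. When KO1 and KO4 were left out, its direction turned, to −0.05 with an unadjusted p of 0.408, and without KO2 it was 0.20 with an unadjusted p of 0.00176 (adjusted p 0.0852).

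The forkhead relatives differed little between genotypes. *Foxp1*, which takes part in keeping naïve T cells quiescent, spans 98902299 to 99499682 of chromosome 6 (reverse strand) and had 259 to 269 CPM in controls and 247 to 264 in the KO, a log2 fold change of −0.04 with a 95% interval of −0.12 to 0.04. *Foxp4*, which spans 48178058 to 48235570 of chromosome 17 (reverse strand), had 152 to 176 CPM in controls and 159 to 170 in the KO, a log2 fold change of 0.03 with a 95% interval of −0.07 to 0.13. The intervals of *Foxp1*, *Foxp4*, *Cbfb* and *Creb1* therefore allow differences between −8.08% and 9.39% in the KO. A *Foxp1* exon shares 300 bases with the predicted gene *Gm20696* on the same strand, which had 17 counts at most.

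**Figure D2:**
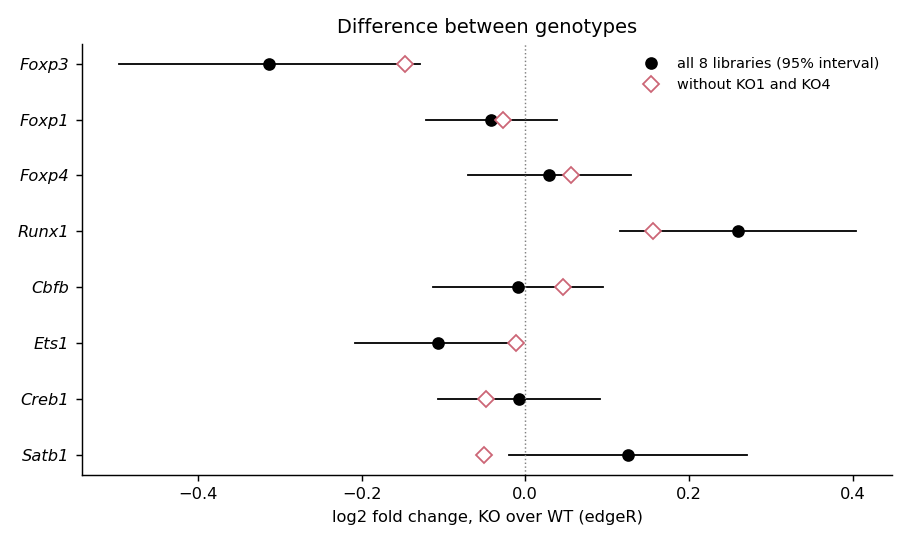
Log2 fold change of each gene, KO over WT, from edgeR with all 8 libraries (black points, with the 95% interval as a line) and without KO1 and KO4 (open diamonds). *Foxp3*, *Runx1* and *Ets1* moved toward 0 without these libraries, to −0.15, 0.16 and −0.01, and *Satb1* moved from 0.13 to −0.05.

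Levels of different genes were compared per kilobase of exon, as normalized CPM divided by the total exon length of each gene. Over the 8 libraries the order was *Ets1* (106 ± 7.27 CPM per kilobase, SD, n = 8), *Cbfb* (53.9 ± 2.86), *Foxp4* (29.7 ± 1.40), *Foxp3* (21.7 ± 3.63), *Foxp1* (16.0 ± 0.425), *Satb1* (15.1 ± 1.65), *Creb1* (10.8 ± 0.461) and *Runx1* (5.87 ± 0.736). Each gene was above the next in all 8 libraries, except that *Foxp1* was above *Satb1* in only 6 of 8. *Foxp3* RNA per kilobase thus stood in the middle of its regulators in these cultures, and *Runx1* was at the bottom in every library. When the longest transcript was used as the length, *Satb1* (36.7) and *Foxp1* (31.7) came before *Foxp3* (25.8), so the place of *Foxp3* against these genes depends on the length taken.

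The second question was how each factor ran with *Foxp3* from library to library. *Runx1* ran opposite to *Foxp3* and *Ets1* ran with it, whereas the other 5 genes had no relation that passed an unadjusted p of 0.05. For *Runx1*, Pearson's r of the log2 CPM over the 8 libraries was −0.94 (two-sided exact permutation test, p = 0.00104, adjusted p = 0.128 over all tested genes) and Spearman's rho was −0.90 (exact p = 0.00456, adjusted p = 0.222). For *Ets1*, r was 0.91 (exact permutation p = 0.000347, adjusted p = 0.0801) and rho was 0.95 (exact p = 0.00114, adjusted p = 0.157). An unadjusted exact p below 0.05 for the relation to *Foxp3* was found in 13.0% of 11305 tested genes, and no gene passed after adjustment. An r as far from 0 as that of *Runx1* was reached by 0.602% of tested genes, and as that of *Ets1* by 1.19%.

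**Figure D3:**
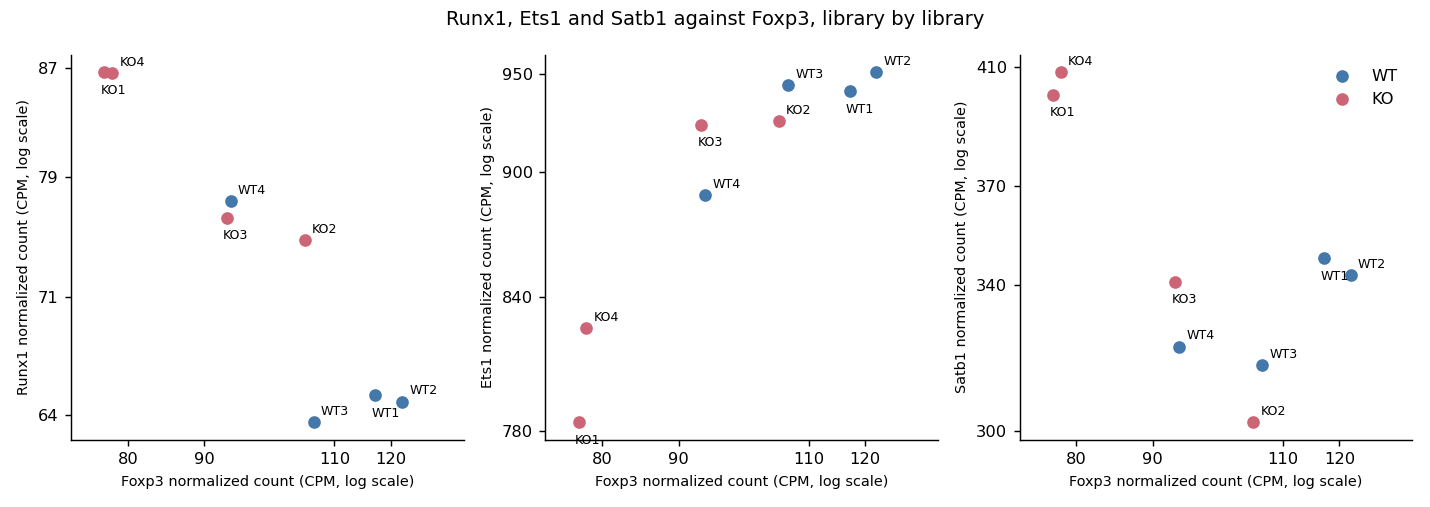
*Runx1*, *Ets1* and *Satb1* against *Foxp3* in each library (normalized CPM, both axes on a log scale that does not start at 0), controls (WT) in blue and KO in red. *Runx1* decreases and *Ets1* increases with *Foxp3* over the 8 libraries and within the KO, whereas within controls this rests mainly on WT4. WT4 lies close to KO3 for *Runx1* but below it for *Ets1*. *Satb1* is high only in KO1 and KO4.

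The relations of *Runx1* and *Ets1* were also present with the genotype means removed. WT4, the control with the lowest *Foxp3*, had the highest *Runx1* and the lowest *Ets1* of the controls, and KO1 and KO4, the KO libraries with the lowest *Foxp3*, had the highest *Runx1* and the lowest *Ets1* of the KO. In WT1, WT2 and WT3, *Foxp3* was 117, 122 and 107 CPM, *Runx1* 65.1, 64.7 and 63.6, and *Ets1* 941, 951 and 944. Within controls both relations therefore rested mainly on WT4. With both genes centred on the mean of each genotype and the libraries permuted within genotypes, r was −0.89 for *Runx1* (exact permutation p = 0.0226, adjusted p = 0.479 over all tested genes) and 0.87 for *Ets1* (exact p = 0.0139, adjusted p = 0.466). The libraries farthest from the median *Foxp3* level were KO1 and KO4. Without them r was −0.84 for *Runx1*, which no longer passed (exact permutation p = 0.0569, n = 6), and 0.80 for *Ets1* (exact p = 0.0417, n = 6). *Runx1* and *Ets1* also ran opposite to each other, with r = −0.89 (exact permutation p = 0.000223, adjusted p = 0.110 over all genes tested against *Runx1*), rho = −0.98 (exact p = 0.000397), and r = −0.88 without the 2 libraries farthest from the median *Runx1* level.

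*Satb1* ran opposite to *Foxp3* in the KO but not in controls. KO2, with the most *Foxp3* of the KO libraries, had the least *Satb1*, and KO1 and KO4 had the most, whereas the 2 controls with the most *Foxp3*, WT1 and WT2, also had the most *Satb1*. This difference between the genotypes was not tested. Over all 8 libraries r was −0.67 (exact permutation p = 0.0697, adjusted p = 0.435 over all tested genes) and rho was −0.38 (exact p = 0.360). Without KO1 and KO4 r was 0.32 (exact permutation p = 0.503, n = 6), so the negative relation rests on those libraries.

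The remaining members gave no relation that held across settings. Over the 8 libraries r was 0.53 for *Foxp1* (exact permutation p = 0.182), −0.34 for *Foxp4* (p = 0.412), −0.25 for *Creb1* (p = 0.533) and 0.18 for *Cbfb* (p = 0.650). In the absence of KO1 and KO4, these became 0.10, −0.78, 0.07 and −0.48, with exact permutation p of 0.0722 for *Foxp4* and above that for the others. *Cbfb* ran opposite to *Satb1*, with r = −0.78 (exact permutation p = 0.0216, adjusted p = 0.765 over all genes tested against *Cbfb*) and rho = −0.90 (exact p = 0.00456), and r was −0.57 without the 2 libraries farthest from the median *Cbfb* level. All 28 pairs of members were examined. The 5 tested genes with the highest r with *Foxp3* over the 8 libraries were *Prr36* (0.99), *She* (0.98), *Jakmip1* (0.98), *Pla2g4f* (0.98) and *Usp18* (0.98), of which *Prr36* and *Usp18* averaged only 2.27 and 1.65 CPM.

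**Figure D4:**
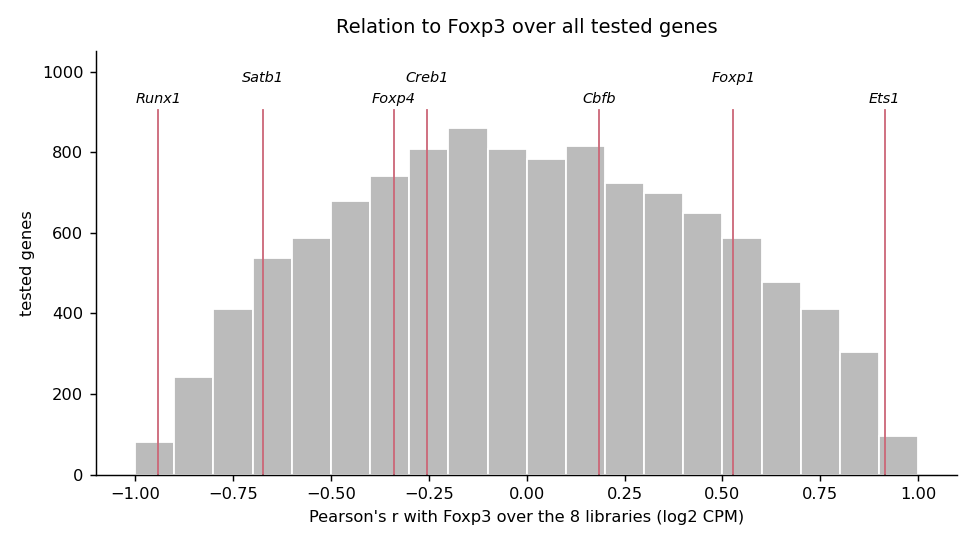
Distribution of Pearson's r with *Foxp3* over the 8 libraries for all tested genes (bars, in bins of 0.1), with the 7 other members as red lines. *Runx1* at −0.94 and *Ets1* at 0.91 fall in the outermost bins, and the other 5 lie between −0.67 and 0.53.

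Other genes of the same pathways were described from lists of names, drawn up with earlier results of these data known. Of 26 other regulators of the *Foxp3* locus, all tested, 1 was lower and 3 were higher in the KO at an unadjusted p below 0.05, which is 15.4% of the list beside 9.30% of all tested genes, and the median log2 fold change was 0.00. None passed the adjusted p in edgeR's test, and *Rel* passed it by DESeq2 and by voom. The count was 2 without KO1, without KO4 or without both, and the share of all tested genes is given only for the last. Without both, that is 7.69% of the list beside 3.91% of all tested genes. The gene that was lower was *Rel*, which encodes c-Rel, the NF-κB subunit that opens the *Foxp3* locus after T cell receptor and CD28 signals. It had 451, 445, 416 and 392 CPM in WT1 to WT4 and 331, 399, 372 and 357 in KO1 to KO4, so only KO2 lay above a control. Its log2 fold change was −0.22 with an SE of 0.0534 and an adjusted p of 0.0834 in edgeR's test, and the adjusted p was 0.0171 without WT4 and 0.00931 without KO2. *Smad3*, a carrier of the TGF-β signal to the *Foxp3* enhancer, had 20.5, 20.2, 19.1 and 19.8 CPM in controls and 26.4, 26.0, 24.6 and 22.8 in the KO, and its genotypes did not overlap (log2 fold change 0.33, SE 0.0803, adjusted p 0.0913 in edgeR's test). *Stat5a*, which carries the IL-2 signal, and *Irf4*, a factor induced by T cell receptor signals, each had a log2 fold change of 0.11 with adjusted p of 0.471 and 0.446 in edgeR's test, and without KO1 and KO4 these were 0.05 and 0.01. *Smad3* and *Rel* kept an unadjusted p below 0.05 without KO1 and KO4, with log2 fold changes of 0.35 and −0.15.

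Among 16 tested of 17 other FOXP3 protein partners and modifiers, 3 were lower and 2 higher at an unadjusted p below 0.05. This is 31.3% of the list beside 9.30% of all tested genes, and the median log2 fold change was 0.00. None passed the adjusted p in edgeR's test or by voom, and 1 gene passed it by DESeq2. The count was 2 without KO1, a fit for which the share of all tested genes is not given. The genes with lower counts were the Ikaros family members *Ikzf1*, *Ikzf2* and *Ikzf4*, zinc finger factors that include FOXP3 partners, with log2 fold changes of −0.10, −0.14 and −0.12. *Ikzf1* had 736 to 751 CPM in controls and 682 to 707 in the KO, without overlap. Without KO1 and KO4 the log2 fold changes were −0.08 for *Ikzf1*, −0.20 for *Ikzf2* and −0.09 for *Ikzf4*. *Rora*, which encodes the nuclear receptor RORα, was among the genes with higher counts. It had 71.4, 61.3, 58.6 and 70.6 CPM in WT1 to WT4 and 79.9, 64.1, 69.2 and 82.9 in KO1 to KO4, so KO1 and KO4 lay above all controls and KO2 and KO3 among them (log2 fold change 0.18, SE 0.0800, adjusted p 0.499 in edgeR's test). When KO1 and KO4 were left out, the log2 fold change of *Rora* was 0.02, and only *Ikzf2* of this list passed an unadjusted p of 0.05. That is 6.25% of the list beside 3.91% of all tested genes. Of 12 tested of 14 paralogs of the members and coactivators of CREB1, among them *Runx3*, *Ets2*, *Fli1*, *Crem* and *Crebbp*, none passed an unadjusted p of 0.05 in edgeR's test, in DESeq2 or by voom, and log2 fold changes ran from −0.10 to 0.16. The count was 2 without the library labelled WT3 and 1 without KO2 or KO3, fits for which the share of all tested genes is not given.

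Of 24 tested of 26 Treg signature and FOXP3 target genes, 6 were lower and 2 higher at an unadjusted p below 0.05. This is 33.3% of the list beside 9.30% of all tested genes, and the median log2 fold change was −0.06. The list also holds genes that FOXP3 is known to repress, none of them among the genes that passed. The median therefore pools genes with opposite expected directions. *Ikzf2* is in this list and in the list of partners. None passed the adjusted p in edgeR's test, while *Il2ra* passed it by DESeq2 and *Lrrc32* by voom. *Lrrc32*, which encodes the receptor GARP that presents latent TGF-β, had 116, 118, 102 and 107 CPM in WT1 to WT4 and 74.3, 100, 99.0 and 67.8 in KO1 to KO4, without overlap (log2 fold change −0.38, SE 0.0942, adjusted p 0.102 in edgeR's test). Its adjusted p was 0.00947 without KO2, and without KO1 and KO4 its log2 fold change was −0.16. *Il2ra*, which encodes a chain of the high-affinity IL-2 receptor, had 2179 to 2370 CPM in controls and 2025 to 2169 in the KO, also without overlap, with a log2 fold change of −0.13 (−0.09 without KO1 and KO4). *Gpr83*, a receptor enriched in Tregs, and *Tnfrsf9*, the costimulatory receptor 4-1BB, had log2 fold changes of −0.28 and −0.20, and these were −0.13 and −0.15 without KO1 and KO4. *Tnfrsf9* passed without WT4 (log2 fold change −0.29, adjusted p 0.00297), whereas its unadjusted p rose above 0.05 by DESeq2 (0.0559), without WT2 (0.0617) and without KO1 and KO4 (0.106). The genes with higher counts were *Nt5e*, the adenosine-producing enzyme CD73, and *Ebi3*, a subunit of IL-35, both with log2 fold changes of 0.20, which were 0.12 and 0.15 without KO1 and KO4. With KO1 and KO4 left out, 3 genes of the list passed an unadjusted p of 0.05, all lower, *Ikzf2*, *Lrrc32* and *Icos*. That is 12.5% of the list beside 3.91% of all tested genes.

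Some of these genes, which had been named for their difference between genotypes, ran with or against *Foxp3* across libraries, and none of the relations passed an adjusted p of 0.05. *Foxp3* was itself lower in the KO on average, so naming genes this way favours a relation over all 8 libraries. Those p-values are therefore no separate support, and r after centring on genotype means is given as well. *Rel* followed *Foxp3* most closely, with r = 0.97 (exact permutation p = 0.000198, adjusted p = 0.0721 over all tested genes) and rho = 0.98 (exact p = 0.000397). For *Rel*, r was 0.95 after centring (exact permutation p = 0.00347) and 0.95 without KO1 and KO4 (exact p = 0.00972, n = 6). *Lrrc32* had r = 0.92 (exact permutation p = 0.00149, adjusted p = 0.141), 0.84 after centring (exact p = 0.0365) and 0.76 without KO1 and KO4 (exact p = 0.0764, n = 6). *Nt5e* ran against *Foxp3*, with r = −0.94 (exact permutation p = 0.00164, adjusted p = 0.141), −0.90 after centring on genotype means (exact p = 0.0226) and −0.80 without KO1 and KO4 (exact p = 0.0611, n = 6). *Irf4* and *Ebi3* also ran against *Foxp3*, with r = −0.86 and −0.85 (exact permutation p = 0.00776 and 0.00838), and −0.43 and −0.86 without KO1 and KO4. After centring, r was −0.78 for *Irf4* and −0.70 for *Ebi3*, which did not pass (exact permutation p = 0.0729 and 0.0747). *Tnfrsf9* had r = 0.85 (exact permutation p = 0.0110, adjusted p = 0.238), 0.76 after centring (exact p = 0.00174) and 0.93 without KO1 and KO4 (exact p = 0.00556, n = 6). *Smad3*, in contrast, had r = −0.55 over all libraries (exact permutation p = 0.166) and 0.37 after centring on genotype means (exact p = 0.481), so the sign of its relation turned once the genotype means were removed. *Ikzf2* had r = 0.12 (exact permutation p = 0.789) and −0.61 after centring (exact p = 0.201). For *Il2ra*, r was 0.70 (exact permutation p = 0.0585) and 0.29 after centring (exact p = 0.495). For *Gpr83* it was 0.70 (exact permutation p = 0.0499), 0.39 after centring (exact p = 0.375) and −0.26 without KO1 and KO4. *Stat5a*, *Ikzf1*, *Ikzf4* and *Rora* passed an unadjusted exact p of 0.05 over all libraries but not after centring.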

How the data were processed

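Total RNA was depleted of ribosomal RNA before library preparation. The authors aligned reads to GRCm39 with STAR 2.7.8a and estimated gene counts with an E/M algorithm in Partek Flow, and the deposited values are these estimated counts (expected counts), filtered but not normalized, 43.0% of which are not whole numbers. The strand setting and annotation version are not given in the sources used here. Counts were rounded, filtered with filterByExpr (minimum count 10), which left out 594 genes, and TMM-normalized (factors 0.993 to 1.00). They were tested for genotype with edgeR 4.0.16 (quasi-likelihood F-test, two-sided, Benjamini-Hochberg over all tested genes), after the script had been tested on simulated data. DESeq2 1.42.0 and limma 3.58.1 were alternatives. No 2 libraries of a genotype agreed within sampling noise (chi-square per degree of freedom 2.59 to 6.29), and 3 counts, taken as the floor, equal 0.188 to 0.225 CPM.

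Relations used log2 CPM with a prior count of 2 and permutation over all 40320 pairings, or 576 within genotypes. Exon lengths and overlaps came from GENCODE release M39 and promoters from RefSeq. The members and lists were chosen with earlier results of these data known, so no p adjusted over a list alone is given. From each list, genes past an adjusted p of 0.05 and at most the 4 lowest unadjusted p in each direction were eligible to be named, besides *Icos*, which was added after its values were seen. *Ets1* promoters and protein sequences were not used here. The values of 1 gene of the list of FOXP3 partners are not reported here.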

Additional observations from a re-analysis of the deposited data

Results flagged for a closer look

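In 8 genes and 2 genotypes, 16 groups of 4 libraries were examined for a library far from the others, and chance alone marks about 1 in 20 such groups. WT4 stood apart from the other controls in *Runx1*, with 77.3 CPM against 63.6 to 65.1, and in *Ets1*, with 889 CPM against 941 to 951. The gap to the nearest control was 0.889 and 0.841 of the whole range, above the critical value of 0.829 for 4 samples. WT4 also had the lowest *Foxp3* of the controls, at 93.8 CPM. Without WT4 the log2 fold change of *Runx1* was 0.33 in place of 0.26, and that of *Ets1* was −0.13 in place of −0.11.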

How the results depend on the processing

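Filters on low counts, other scalings and DESeq2 changed no call on the adjusted p among the 8 genes. The adjusted p of *Foxp3* passed with voom quality weights (log2 fold change −0.37) and with the replicate number as a block (−0.32), each with 2 genes passing in place of 0, *Foxp3* and *Runx1*. With 1 library left out its log2 fold change ranged from −0.41 to −0.25, with 0 to 2 of the 8 genes passing the adjusted p. Same-numbered libraries did not deviate together over all tested genes (correlations −0.0458 to 0.0691). Libraries with different numbers were not compared in this way, and a pairing that touches only part of the genes was not tested. Without KO1 and KO4 together, 0 of the 8 genes passed the unadjusted p in place of 3, and the log2 fold changes of *Satb1* (−0.0501) and *Cbfb* (0.0460) turned. With 1 library left out the log2 fold change also turned for *Cbfb* (−0.0506 to 0.0211), *Creb1* (−0.0413 to 0.0137), *Ccdc22* (−0.0373 to 0.0270) and *Ppp1r3f* (−0.202 to 0.0676). Over all genes, 30 passed the adjusted p, against 81 with DESeq2, 95 with voom, 87 with the replicate block, 3 without KO1 and KO4, and from 6 (without KO1) to 162 (without KO2) with 1 library left out. The 1.2-fold cutoff was met by 1 of the 8 genes, against 2 with voom, 0 at 1.5-fold or without KO1 and KO4, and 0 to 2 with 1 library left out, and by 393 of all genes, against 147 at 1.5-fold and 235 without KO1 and KO4; these alternatives were chosen after seeing the data. Without KO1 and KO4 list counts were 2 of 26 locus regulators, 1 of 16 partners and 3 of 24 Treg genes, beside 3.91% of all tested genes. With 1 library left out the list counts were 2 to 6, 2 to 6, 0 to 2 (paralogs) and 6 to 11. The share of all tested genes at an unadjusted p below 0.05 is not given for those fits, so these ranges do not set the lists against all genes. Relations to *Foxp3* passed in 1 member in place of 2 without KO1 and KO4, where r turned for *Cbfb* (−0.48), *Creb1* (0.0680) and *Satb1* (0.32). With 1 library left out, r of *Cbfb* ranged from −0.13 to 0.57. The causes were not tested. Depth limited none of the 8 genes, each with at least 890 counts in every library.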
